A study of Mus musculus with 11 samples.

Results

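The 3T3-L1 cells described here received only vehicle, 0.1% DMSO, for 24 h, and were measured on 3 of the 11 arrays of the series, 1 array of total RNA for each sample. They were taken by their labels, as vehicle replicates 1, 2 and 4. The other 8 arrays are of 3T3-L1 cells given pioglitazone (20 µM, 2 arrays), rosiglitazone (1 µM, 3 arrays) or troglitazone (20 µM, 3 arrays) for 24 h. The titles place replicates 1 and 2 of each group in a first set of arrays and replicate 4 of vehicle, rosiglitazone and troglitazone in a second set. The labels say neither whether the cells had been differentiated nor whether the cultures were independent. The question taken up here is which gene groups were bright or dim in cells without drug, and how well the 3 arrays repeated each other.

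3T3-L1 is a clonal line of mouse fibroblasts that hormones can turn into cells like fat cells, so it stands for 1 clone and not for adipose tissue with its vessels and immune cells. During this change the transcription factors C/EBPβ, C/EBPδ, PPARγ and C/EBPα take over from one another, the fibroblast matrix is remodelled, and genes of lipid uptake, fatty acid synthesis and triglyceride storage are turned on. Mature fat cells also release triglyceride by lipolysis and secrete hormones such as adiponectin, resistin and leptin.

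Each array holds 12422 probe sets other than controls, and 8251 genes were represented by their brightest probe set over the vehicle arrays. Each probe set was given a percentile rank on its own array, with 100 for the brightest, since ranks need no scaling between arrays. A gene at rank 90 or more on all 3 vehicle arrays is called bright. A gene is called dim where on all 3 arrays it did not exceed the background line, set at the 90th percentile of 85 genes of unrelated tissues such as retina, testis and pancreas. That line lay at rank 69.1, 70.6 and 73.7, or a signal of 461, 492 and 511, on replicates 1, 2 and 4. Probe sets of bacterial and yeast controls were dimmer still, with a highest rank of 43.7, 49.3 and 47.1. By these rules 790 of 8251 genes were bright (9.57%) and 4678 were dim (56.7%), and these shares are the background against which each gene group is read. Probe sets bind their targets unequally, so a rank orders probe sets and not amounts of transcript.

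The 5 measured adipocyte markers were all bright in the vehicle cells. Adipoq, which encodes the fat cell hormone adiponectin, had a signal of 41392, 49355 and 49893 on replicates 1, 2 and 4. Fasn, fatty acid synthase, had 13607, 15582 and 18128. These 2 genes had a mean rank of 99.9 and 99.6, and no vehicle array took either below rank 99.5. Cidec, a protein that fuses lipid droplets, had a signal of 9478, 9483 and 13351. Plin2, a coat protein of lipid droplets, had 9675, 10196 and 6178. Fabp4, the fatty acid binding protein of fat cells, was the dimmest of the 5 measured markers, with 2210, 2819 and 2037 and a mean rank of 94.3. It still lay above rank 93.0 on each array. Cfd, adipsin, the remaining marker, is not named in the annotation used here and has no value.

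Of 26 measured genes of adipocyte identity, 20 were bright and 3 dim, against 9.57% and 56.7% of all genes, and their median rank was 98.5, against 55.6 for all genes. Scd1, the desaturase that makes monounsaturated fatty acids, had the brightest probe set other than controls on each vehicle array, at 99795, 136379 and 105023. Pnpla2, the lipase that starts triglyceride breakdown, had a signal of 45220, 55934 and 53538. Lpl, lipoprotein lipase, had 20455, 22415 and 26721. All 3 lay within the brightest 34 non-control probe sets of every vehicle array. Pparg, the nuclear receptor that drives adipogenesis, had 1931, 1729 and 2886, and Slc2a4, the insulin-responsive glucose transporter GLUT4, had 2175, 2086 and 2355. Both were bright, though with mean ranks of 93.6 and 94.0 they stood lower in the list than the enzymes of lipid storage. Another probe set of Slc2a4 was dim, with 75.2, 28.1 and 61.2.

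**Figure D1:**
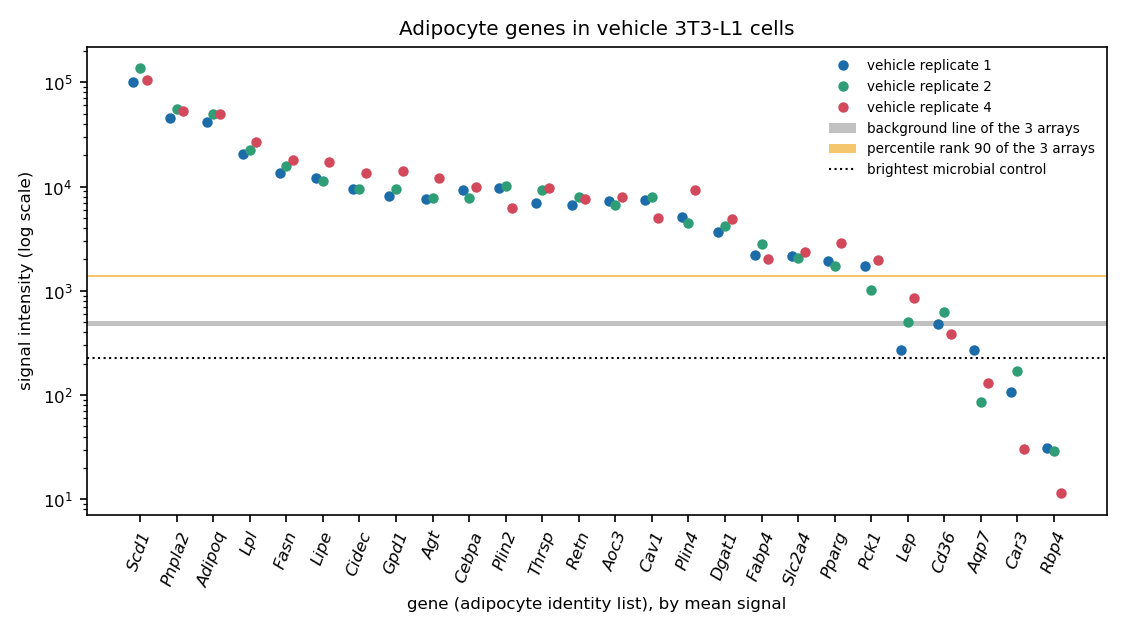
Signal intensity (log scale) of the 26 measured adipocyte identity genes on the 3 vehicle arrays, 1 point for each array, with the signal at percentile rank 90 (yellow), the background line (grey) and the brightest microbial control (dotted). The 20 genes at the left lie above rank 90 on every array, Lep and Cd36 straddle the background line, and Aqp7, Car3 and Rbp4 lie below it.

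Some genes that fat tissue expresses were not bright in these cells. Rbp4, retinol binding protein, had a signal of 31.3, 28.8 and 11.4, and Car3, a carbonic anhydrase abundant in adipose tissue, had 106, 170 and 30.6. Aqp7, the glycerol channel, had 272, 85.6 and 130. All 3 lay at or below the background line on every array. Cd36, a fatty acid receptor, had 482, 621 and 390, so that it was above the line on replicates 1 and 2 and below it on replicate 4. Its other probe set was dim, with 16.2, 20.2 and 7.2. Lep, the hormone leptin, had 271, 503 and 859. Its rank was 55.5, 71.0 and 83.5 on replicates 1, 2 and 4, and it was above the line on replicates 2 and 4. A second probe set of Lep was dim, with 150, 159 and 92.1.

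Genes that build fatty acids and triglycerides formed the group with the largest share of bright members, 14 of 17, with 1 dim and a median rank of 98.0. Scd2, a second desaturase, had a signal of 30693, 29729 and 31665, and its coefficient of variation of 3.15% was the lowest of the 25 brightest genes. Slc25a1, the carrier that brings citrate out of mitochondria, had 8276, 9805 and 10274, and Acly, which splits that citrate into acetyl-CoA, had 5672, 5897 and 5588. Srebf1, the transcription factor of lipogenic genes, had 5970, 5896 and 6933. Each of these 4 genes was bright. Elovl6, a fatty acid elongase, was the dim member, with 274, 363 and 229.

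The other lipid groups were bright in part. Lipid droplet proteins had 6 bright genes of 10 and 1 dim. G0s2, the inhibitor of the Pnpla2 lipase, had a signal of 4821, 5041 and 7952, and Abhd5, its activator, had 2224, 2267 and 2489. Cidea, a droplet protein best known from brown fat, had 1318, 1814 and 3484 and was bright on replicates 2 and 4 alone. In lipolysis 5 of 7 genes were bright, led by Pnpla2 and by Lipe, hormone-sensitive lipase, with 12044, 11189 and 17082. Bright genes thus stood on both the storing and the releasing side of the droplet. Fatty acid uptake and binding had 4 bright genes of 13, and the transporters Slc27a1 and Slc27a4 and the very low density lipoprotein receptor Vldlr had mean ranks of 42.9, 66.9 and 55.1. Cholesterol synthesis and uptake had 5 bright genes of 18. Among them Fdps, which makes farnesyl diphosphate, had 16779, 17601 and 14859, while Insig1, the sterol-regulated brake on this pathway, was dim with 164, 175 and 108.

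Adipokines and other secreted proteins had 11 bright genes of 19 and 5 dim. Retn, resistin, had a signal of 6670, 7908 and 7587, and Agt, angiotensinogen, had 7671, 7773 and 11987. Rarres2, chemerin, had 4230, 4147 and 8046. The apolipoprotein gene Apoc1 stood at mean rank 99.7, with 18422, 18828 and 26255, while the brighter of 2 probe sets of Apoe, another apolipoprotein gene, had 120, 59.8 and 26. Saa3, an acute phase protein that inflamed fat cells make, was dim with 82.3, 34.7 and 40.3.

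Among 22 adipogenic transcription factors 6 were bright and 9 dim. Cebpa, a factor of the late phase of adipogenesis, led with 9214, 7794 and 9799. Cebpb, which acts early, had 2846, 3781 and 4138 and was bright, while Cebpd, its early partner, had 653, 620 and 724 and was neither bright nor dim. Klf4 and Nr3c1, the glucocorticoid receptor, were dim, with mean ranks of 18.7 and 6.09. In insulin signalling 3 of 15 genes were bright. Akt2, the kinase downstream of the insulin receptor, had 3566, 3403 and 2983. The receptor itself, Insr, was dim with 42, 44.1 and 28, as was the docking protein Irs1 with 203, 167 and 83.6.

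Genes of energy metabolism were bright as a group. Of 56 genes of oxidative phosphorylation 40 were bright and 9 dim, with a median rank of 97.9. By complex, 20 of 25 genes of complex I, 8 of 8 of complex III, 5 of 10 of complex IV and 7 of 12 of the ATP synthase were bright. Cox6a1, a subunit of cytochrome oxidase, had a signal of 37357, 39297 and 54021, and Uqcrq of complex III had 23337, 26272 and 31765. Ndufs4 of complex I, in contrast, had 25.5, 99.3 and 10.5. A single complex thus held probe sets at both ends of the array, since 20 complex I genes were bright and 3 dim. Of 26 genes of the citric acid cycle and pyruvate entry 15 were bright, with Mdh2, mitochondrial malate dehydrogenase, at 13415, 13959 and 15805 and Pcx, pyruvate carboxylase, at 9081, 9716 and 8109.

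Fatty acid oxidation had 10 bright genes of 17 and 1 dim. Acaa2, the thiolase of the mitochondrial spiral, had a signal of 9417, 8195 and 10488, and Hadhb, a subunit of the trifunctional protein, had 8232, 8024 and 8307. Acadvl, the dehydrogenase for very long chains, was the dim member, at 118, 44.5 and 140. Glycolysis had 9 bright genes of 15, led by Aldoa, aldolase, with 35474, 37149 and 28489, and by Ldha, lactate dehydrogenase, with 16241, 17954 and 17302. Slc2a1, the basal glucose transporter GLUT1, was not bright, with 549, 452 and 234. Peroxisomal lipid metabolism had 6 bright genes of 18. Among 10 thermogenic genes 1 was bright, the muscle and brown fat subunit Cox8b with 7351, 6930 and 5609, and 7 were dim. Ucp1, the uncoupling protein of brown fat, was among the dim ones, with 189, 39.9 and 27.7, as was the coactivator Ppargc1a with 87.8, 137 and 83.1.

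**Figure D2:**
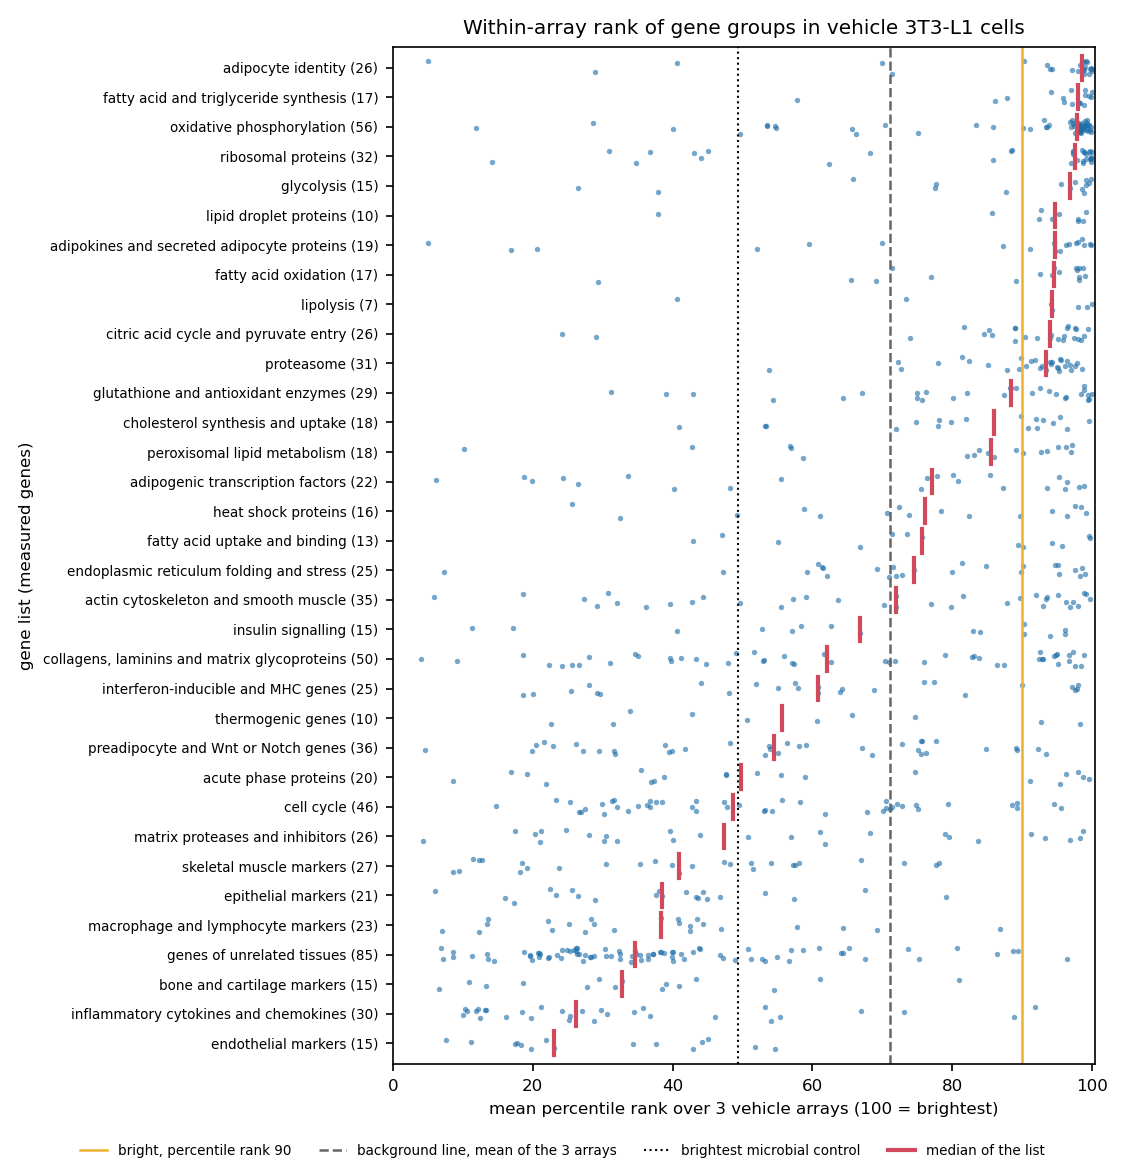
Mean percentile rank over the 3 vehicle arrays (horizontal axis, 100 the brightest) of every measured gene of 34 lists, 1 point for each gene and a red bar at the median of the list, with rank 90 (yellow), the mean background line (dashed) and the brightest microbial control (dotted). Adipocyte identity, lipid synthesis, oxidative phosphorylation and ribosomal proteins crowd against the right edge with medians from 97.7 to 98.5, and markers of other cell types lie mostly left of the background line.

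Fibroblast and preadipocyte genes presented a mixed picture. Of 36 preadipocyte, Wnt and Notch genes 2 were bright (5.56%, against 9.57% of all genes) and 19 were dim (52.8%, against 56.7%), so the group lay close to the background in both. The bright pair was S100a4, a calcium-binding protein of fibroblasts, with 1756, 2003 and 2544, and Dlk1, the preadipocyte factor Pref-1, with 1877, 1623 and 1840. Pdgfra, the growth factor receptor that marks adipocyte progenitors, was dim with 158, 250 and 359. Sfrp1, a secreted Wnt antagonist, and Wnt10b, a Wnt ligand that holds preadipocytes undifferentiated, were dim, with mean ranks of 22.9 and 39.9.

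The matrix list had 13 bright genes of 50 and 24 dim ones. Col6a1, a microfibrillar collagen, had a signal of 6688, 5950 and 9006, and Col4a1, of basement membranes, had 5931, 4163 and 3935. Bgn, the small proteoglycan biglycan, was the brightest of the list with 7878, 7034 and 10457. The fibrillar collagens Col1a1, Col1a2 and Col3a1 were bright as well, with mean ranks of 92.9, 94.9 and 93.0. Postn, periostin, and Vcan, versican, both prominent in proliferating fibroblasts and wounds, were dim with mean ranks of 28.0 and 22.3. Of 26 matrix proteases and inhibitors 4 were bright (15.4%) and 17 dim (65.4%), against 9.57% and 56.7% of all genes. The 3 brightest were the lysosomal cathepsins Ctsb, Ctsd and Ctsl. The gelatinases Mmp2 and Mmp9 were dim, at 43.2, 266 and 42.3 and at 58.7, 94.2 and 78.3, while Mmp14, a membrane-bound matrix protease, lay above the line on every array at 1213, 808 and 741.

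The actin list had 12 bright genes of 35 and 14 dim. Lgals1, galectin 1, led with 18476, 17300 and 24986, and Actb, beta-actin, had 10497, 10654 and 6583. Among the dim members were Acta2, smooth muscle actin, at 348, 371 and 351, Tagln, transgelin, at 300, 80.7 and 200, and Ccn2, a connective tissue growth factor, at 18.1, 20 and 27.5. The cell cycle list had 2 bright genes of 46 (4.35%, against 9.57% of all genes) and 29 dim (63.0%, against 56.7%), so its dim share lay near that of all genes. The bright members were Ccnd2, a D-type cyclin, with 2980, 2589 and 3061, and Cdkn2c, an inhibitor of the kinases that D-type cyclins activate, with 2569, 2420 and 2193. Mki67, the Ki-67 proliferation antigen, was dim with 298, 212 and 246, and so was Top2a, the topoisomerase of dividing cells, with 165, 46.7 and 47.1.

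Genes of inflammation were mostly dim, 26 of 30 (86.7%, against 56.7% of all genes). The bright member was Nfkbia, the inhibitor of NF-κB, with 1468, 1557 and 2129. Il6 had a signal of 4.9, 96.1 and 12.3 and Tnf had 99.4, 74.5 and 242, while Cd14, the endotoxin coreceptor, stood highest after Nfkbia with 1535, 1084 and 1232. Among 25 interferon-inducible and MHC genes 4 were bright (16%) and 13 dim (52%), against 9.57% and 56.7% of all genes. The bright ones were all of antigen presentation by class I molecules, namely B2m, H2-K1, H2-D1 and Tapbp. B2m, the light chain of class I, had 6914, 6079 and 4698. Of 20 acute phase genes 5 were bright and 13 dim (65%, against 56.7% of all genes). Bright members included the metallothioneins Mt1 and Mt2, which bind zinc, and Hp, haptoglobin. Mt1 had 17685, 16848 and 22423. The class I heavy chains are near-identical genes, so the signals of H2-K1 and H2-D1 may be shared between them.

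Housekeeping groups ranked high, yet not in every member. Ribosomal proteins and elongation factors had 20 bright genes of 32 and a median rank of 97.7, with Rpl41 at 60885, 60045 and 86732. In the same list 7 genes were dim, such as Rps15 with 30.1, 132 and 7.1 and Rps14 with 231, 76.3 and 41.6. Every cell uses these proteins, so a place at or below the line is given here as a low signal of that probe set and not as absence of the transcript. The proteasome had 19 bright genes of 31 and 1 dim. Glutathione and antioxidant enzymes had 12 bright genes of 29, with Sod1, the copper and zinc superoxide dismutase, at 40083, 55253 and 82366. In the endoplasmic reticulum list 7 of 25 were bright, including the stress-related transcription factors Atf4, at 6864, 7160 and 8446, and Ddit3, at 2295, 2582 and 3847.

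Markers of other cell types were not bright. Of 23 macrophage and lymphocyte markers 0 were bright and 19 dim, of 15 endothelial markers 0 and 13, of 27 skeletal muscle markers 0 and 23, of 15 bone and cartilage markers 0 and 14, and of 21 epithelial markers 0 and 19. The dim shares of these lists ran between 82.6% and 93.3%. Some defining genes were low, with Ptprc, the pan-leukocyte antigen CD45, at 133.5, 62.6 and 30.7, Cdh5, the cadherin of endothelium, at 41, 35.5 and 14.2, and Epcam, an epithelial adhesion protein, at 35.9, 35.9 and 9.4. Cdh1, the cadherin of epithelium, in contrast had 942, 614 and 602 and lay above the line on every array. Csf1r, the receptor of macrophage growth factor, was the brightest of the 5 lists at 1800, 1367 and 643. It reached rank 90 on replicates 1 and 2 and was above the line but not bright on replicate 4. In skeletal muscle Myog, the factor myogenin, had 721, 684 and 598, also above the line, while Ckm, muscle creatine kinase, had 91.4, 102 and 238 and Acta1, skeletal actin, had 71.5, 57.1 and 39.4.

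The 25 brightest genes fell into few kinds. Scd1, Pnpla2, Adipoq, Scd2, Lpl and Apoc1 belong to lipid metabolism or fat cell secretion. Rpl41, Rps28, Rps18, Rplp0, Rpl19, Rps24 and Eef1a1 serve translation, and Cox6a1, Uqcrq and Ndufa7 serve respiration. The others were Sod1, Aldoa, Fth1, the ferritin heavy chain, Gnas, the stimulatory G protein subunit, Tspo, a protein of the outer mitochondrial membrane, Tpt1, Ptms, Lgals1 and Prnp, the prion protein. Fth1 had a signal of 27911, 30629 and 31258, and Prnp had 17800, 18735 and 20639. Of these 25, Scd1 kept position 1 on each array, and Ptms moved over the most positions, at 32, 19 and 43 on replicates 1, 2 and 4, followed by Aldoa at 9, 9 and 32.

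Promoters differed in their CG pairs by gene group, and the following 6, all of bright genes, are shown to let adipocyte genes be set beside housekeeping ones. Each is the sense strand of the 120 bases before the RefSeq start of the gene on GRCm38.p6, printed 5′ to 3′, with CG pairs and, where found, TATAAA in capitals. The first 3 are of secreted fat cell proteins, at chr16:23146416-23146535 (plus strand) for Adipoq, chr8:124569707-124569826 (minus) for Agt and chr8:3655650-3655769 (plus) for Retn. The others are at chr11:120824548-120824667 (minus) for Fasn, chr5:115348959-115349078 (minus) for Cox6a1 and chr5:115559347-115559466 (plus) for Rplp0, a ribosomal stalk protein.
Adipoq: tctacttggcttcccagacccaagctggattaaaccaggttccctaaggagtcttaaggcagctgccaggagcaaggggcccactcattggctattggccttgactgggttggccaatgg
Agt: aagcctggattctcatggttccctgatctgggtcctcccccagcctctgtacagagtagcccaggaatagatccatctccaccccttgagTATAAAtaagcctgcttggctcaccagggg
Retn: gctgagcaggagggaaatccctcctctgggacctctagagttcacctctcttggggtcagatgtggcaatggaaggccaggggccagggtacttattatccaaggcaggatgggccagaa
Fasn: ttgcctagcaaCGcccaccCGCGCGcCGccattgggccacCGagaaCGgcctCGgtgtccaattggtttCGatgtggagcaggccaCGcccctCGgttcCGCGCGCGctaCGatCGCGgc
Cox6a1: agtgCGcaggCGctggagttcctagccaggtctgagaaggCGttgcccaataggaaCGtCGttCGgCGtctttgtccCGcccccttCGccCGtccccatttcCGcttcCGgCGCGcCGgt
Rplp0: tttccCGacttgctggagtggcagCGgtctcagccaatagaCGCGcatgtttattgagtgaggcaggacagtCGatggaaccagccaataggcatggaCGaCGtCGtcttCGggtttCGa
The 3 secreted protein genes held 0 CG pairs in these bases, and Agt held a TATAAA starting 30 bases before the start. Fasn, an adipocyte marker as well, held 18 CG pairs, Cox6a1 15 and Rplp0 10. Of bright adipocyte identity genes not printed, Plin2 held 4 and Thrsp 1 in the same bases. Cidec held 1 and 3 in its 2 promoters, and no promoter of Plin2, Thrsp or Cidec had TATAAA near the start.

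Over the 250 bases before the start, a CpG ratio above 0.6, the number of CG pairs over that expected from the C and G content, was found in 22.2% of 18 promoters of bright adipocyte identity genes. It was found in 74.5% of 51 promoters of oxidative phosphorylation genes and 81.2% of 32 of ribosomal protein genes. Among all bright genes the share was 68.7% of 835 promoters, close to the 67.9% of 2946 promoters of genes neither bright nor dim. It was 48.3% of 4631 promoters of dim genes and 34.0% of all 32851 promoters of the table. TATAAA, searched on both strands between 40 and 16 bases before the start, was present in 16.7% of the bright adipocyte identity promoters, in 0% of the oxidative phosphorylation and of the ribosomal ones, and in 2.48% of all promoters. Promoters of adipokines and other secreted proteins were close to those of the bright adipocyte identity genes, with 21.1% and 15.8% of 19, while the 18 promoters of genes that build fatty acids and triglycerides had 44.4% and 0%. Of the promoters of genes of unrelated tissues, 6.94% had the high CpG ratio and 23.6% the TATAAA. The table holds promoters of 13 of the 20 bright adipocyte identity genes, and these shares are descriptions of letters without a test.

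**Figure D3:**
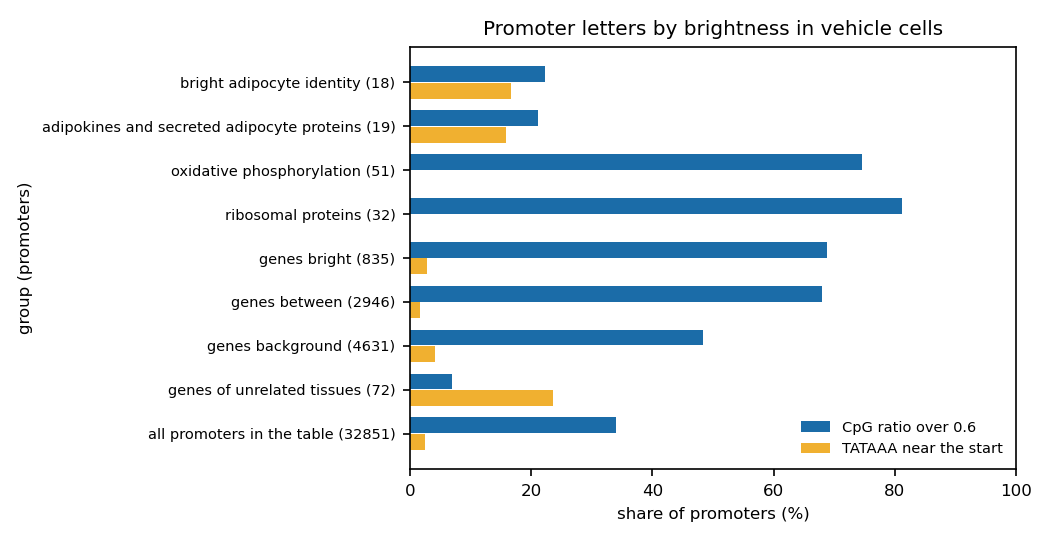
Share of promoters (percent, horizontal axis) with a CpG ratio over 0.6 in the 250 bases before the start (blue) and with TATAAA between 40 and 16 bases before it (yellow), by gene group, with the number of promoters in brackets. Oxidative phosphorylation and ribosomal protein genes have the longest blue bars and no yellow bar, and bright adipocyte identity genes have 22.2% and 16.7%.

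The 3 vehicle arrays repeated each other best among bright genes. Bright genes had a median coefficient of variation of 16.6% and a median range of 1.15 rank points over the 3 arrays, at most 7.05, which the rule of rank 90 on every array limits to 10. Genes that were neither bright nor dim had 25.5% and 9.02 points, and dim genes 46.0% and 19.4 points. By mean rank, the median range of probe sets was widest between ranks 30 and 40, at 26.8 points, and narrowest between 90 and 100, at 1.43. Dim probe sets thus changed places from array to array. Of 1230 genes at rank 90 or more on at least 1 array, 790 were so on all 3 (64.2%). On single arrays 1007, 999 and 1003 genes reached rank 90 on replicates 1, 2 and 4.

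**Figure D4:**
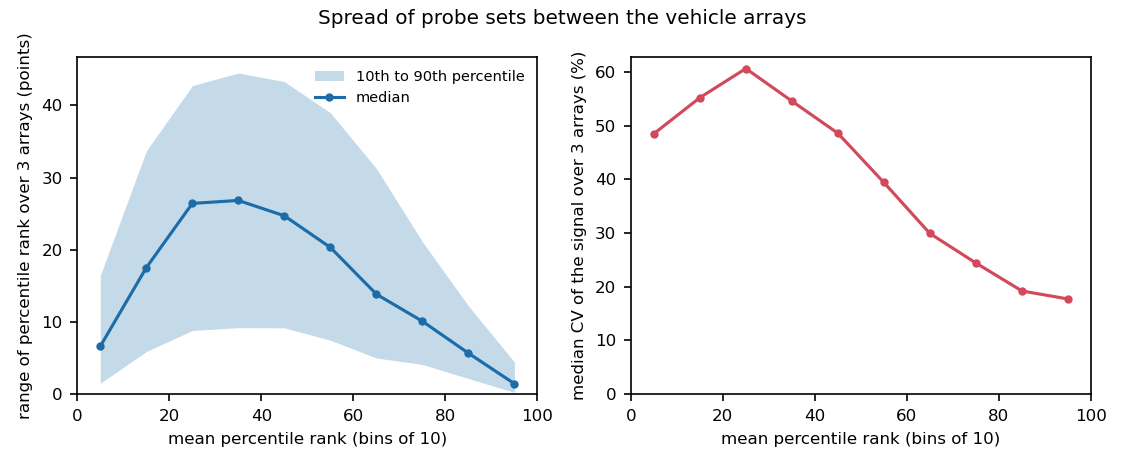
Range of the percentile rank over the 3 vehicle arrays (left, points, median with the 10th to 90th percentile shaded) and median coefficient of variation of the signal (right, percent), both by mean percentile rank in bins of 10. The range peaks at a median of 26.8 points between ranks 30 and 40 and is 1.43 points above rank 90.

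Different probe sets of a gene often held different ranks. The 2073 genes with more than 1 probe set had a median gap of 24.8 points between the highest and the lowest mean rank. Of the 248 bright ones among them, 146 (58.9%) had a further probe set below the mean background line of 71.1. Cav1, caveolin 1 of the fat cell membrane, had 7394, 7923 and 4965 on one probe set and 110, 276 and 237 on another. Since the brightest probe set stands for a gene, the counts of bright genes are upper values, and with the mean over all probe sets of a gene 15 of the 26 adipocyte identity genes were bright, among 591 in all.

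Spearman correlations of rank across the 12422 probe sets were 0.843 between replicates 1 and 2, 0.837 between 1 and 4 and 0.826 between 2 and 4. These are descriptions across probe sets, which are not independent. Vehicle replicate 4 correlated more closely with the treated arrays of its own set, at 0.861 with rosiglitazone replicate 4 and 0.867 with troglitazone replicate 4, than with the other vehicle arrays. Vehicle replicate 1 was also closer to treated arrays of its set, at 0.850 with pioglitazone replicate 2 and 0.846 with troglitazone replicate 2, than to vehicle replicate 2. Over all 24 pairs of a treated and a vehicle array the correlation lay between 0.753 and 0.867, and rosiglitazone replicate 2 stood lowest with each vehicle array.

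**Figure D5:**
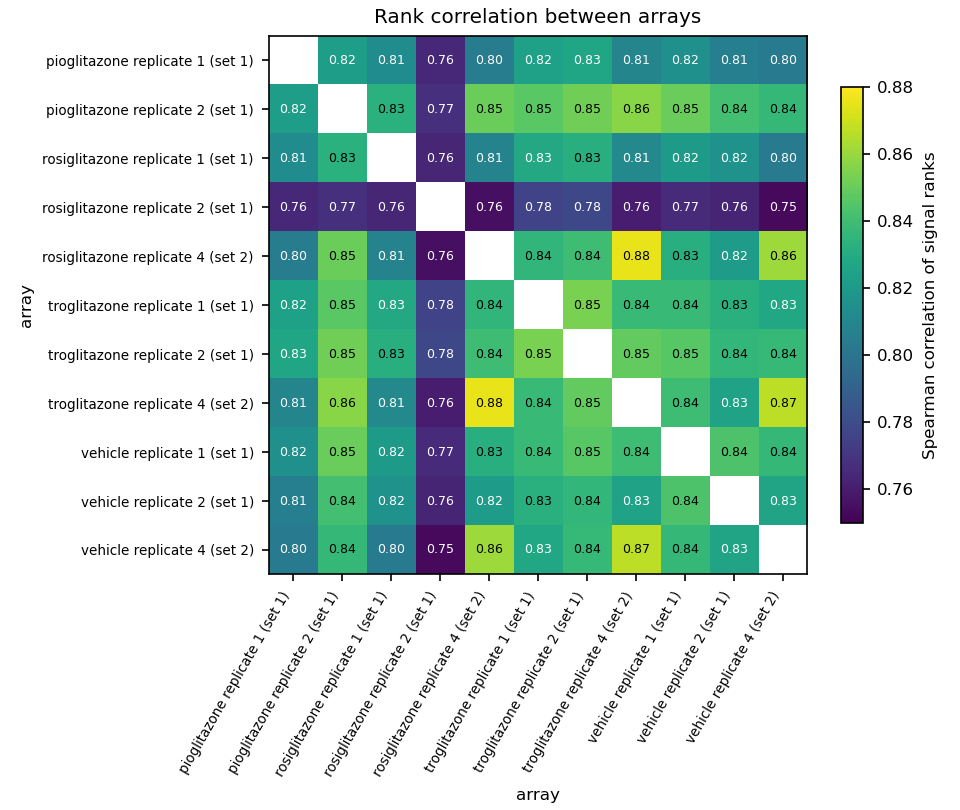
Spearman correlation of signal ranks across 12422 probe sets for each pair of the 11 arrays (colour and printed value), with the set of each array in its label. Vehicle replicate 4 is brightest in colour with the set 2 arrays of rosiglitazone and troglitazone, at 0.86 and 0.87, and rosiglitazone replicate 2 forms a dark band.

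Between the sets, few single probe sets of the vehicle arrays passed a test, though the set difference was partly shared with treated arrays. Over the 11739 tested probe sets, the log2 set difference of vehicle correlated with that of rosiglitazone and troglitazone (Spearman 0.352). In those treated arrays 77 of the 11739 probe sets passed for the set difference, 41 higher and 36 lower, and all 77 went the same way in vehicle. The share that went the same way over all tested probe sets was not counted. With limma on all 11 arrays, replicate 4 differed from replicates 1 and 2 in 7 of 11739 tested probe sets (0.0596%) at an adjusted p under 0.05, 1 higher (0.00852%) and 6 lower (0.0511%), and 943 had an unadjusted p under 0.05. Of 7951 genes tested through their brightest probe set, 4 were lower (0.0503%) and 0 higher. Agr2, a disulfide isomerase of secretory epithelia, had 101.1 on replicate 4, against 1463 and 1371 on replicates 1 and 2 (log2 difference -3.81 ± 0.45, SE, adjusted p = 0.0306). Pofut2, a fucosyltransferase, had 163 on replicate 4, against 2171 and 2341 (log2 difference -3.79 ± 0.44, SE, adjusted p = 0.0306). Rps13, a ribosomal protein, and Sf3a2, a splicing factor, were lower by the smaller log2 differences of -2.43 and -2.10 (adjusted p = 0.0425 and 0.0235). Each of the 4 genes was read from a probe set whose name carries the suffix r, and none of them is an adipocyte identity gene.

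A lone array was compared in this test and is assumed to vary like the others. Its 95% intervals reached a median of 1.45 to each side on the log2 scale, so that a small difference could not be resolved. For the comparison with the set difference of treated cells, given below, the intervals were wider, at a median of 1.77. The 7 calls were 0 when any one of vehicle replicates 1 and 2, pioglitazone replicates 1 and 2, rosiglitazone replicates 1 and 2 or troglitazone replicates 1 and 2 was left out. The 7 probe sets moved the same way in the treated arrays of the second set, and whether the set difference of vehicle cells was other than that of the treated cells was tested by limma directly, with 0 probe sets called and 391 at an unadjusted p under 0.05. Of the 34 lists, ribosomal proteins held 1 gene that passed, Rps13, and the others held 0. The median log2 difference of replicate 4 against replicates 1 and 2 was 0.46 for lipid droplet proteins (7 of 10 above 0), 0.45 for oxidative phosphorylation (46 of 56) and 0.43 for ribosomal proteins (24 of 32), against -0.07 for all genes (3593 of 7951). It was -0.79 for macrophage and lymphocyte markers (6 of 21), -0.54 for epithelial markers (6 of 19) and -0.48 for thermogenic genes (1 of 10). Most measured genes of these 3 lists were dim (19 of 23, 19 of 21 and 7 of 10), and dim probe sets changed places from array to array. With quantile normalisation the first 3 medians were 0.21, 0.16 and 0.10 and the last 3 were -0.67, -0.35 and -0.33. The ratio of the 3′ to the 5′ probe set of the beta-actin control, a measure of RNA integrity and of labelling, was 3.90 on vehicle replicate 4, against 2.23 and 2.27 on replicates 1 and 2. It was 3.74 and 3.79 on replicate 4 of rosiglitazone and troglitazone. On treated arrays of the first set it lay between 1.79 and 2.09, except for 4.86 on pioglitazone replicate 2. The part of this ratio in these differences, and in the comparison with drug below, was not tested.

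Set beside the treated cells, the vehicle cells differed in part of the groups described. In the limma fit with a term for the set, the mean of the 3 drugs differed from vehicle in 251 of 11739 probe sets (2.14%), 150 higher (1.28%) and 101 lower (0.86%). It differed in 207 of 7951 genes (2.6%), of which 125 (1.57%) were higher with drug and 82 (1.03%) lower. Each gene was read from its probe set brightest in vehicle cells, a choice that can tilt gene and list values towards lower with drug. The median log2 difference was -0.05 over these genes and -0.03 over all tested probe sets. Of 25 tested adipocyte identity genes 4 were higher and 7 lower with drug. Plin2 was higher, with 15083 to 31400 and a median of 21268 on the 8 treated arrays, against 9675, 10196 and 6178 on the vehicle arrays (log2 difference 1.29 ± 0.12, SE, adjusted p = 1.8e-05). Pparg was lower, with 462 to 1054 and a median of 604 on the treated arrays, against 1931, 1729 and 2886 on the vehicle arrays (log2 difference -1.75 ± 0.18, SE, adjusted p = 3.99e-05). In both genes the treated and vehicle arrays did not overlap. The dimmest marker Fabp4 had 2437 to 3893 and a median of 3194 on the treated arrays, against 2210, 2819 and 2037 on the vehicle arrays, and did not pass (log2 difference 0.40 ± 0.13, SE, adjusted p = 0.157).

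In several groups the members that passed the test mostly went one way, though most members of all but the glycolysis list did not pass. Of 56 oxidative phosphorylation genes 11 were higher with drug and 0 lower, of 17 fatty acid oxidation genes 7 and 0, and of 15 glycolysis genes 8 and 0. Of 18 adipokines 1 was higher and 7 lower, and of 47 matrix genes 0 were higher and 9 lower. Median log2 differences of these lists were 0.34, 0.54, 0.56, -0.48 and -0.44, against -0.05 for all genes, and each list kept the direction of its median with quantile normalisation and with median centring. With quantile normalisation 4 fatty acid oxidation genes were higher and 1 lower, and 3 glycolysis genes were higher. Hp, haptoglobin, had 1134 to 2775 with a median of 1657 on the treated arrays, against 5182, 6462 and 6385 on the vehicle arrays (log2 difference -1.81 ± 0.17, SE, adjusted p = 2.45e-05). Dlk1 had 869 to 1402 with a median of 1129 on the treated arrays, against 1877, 1623 and 1840 on the vehicle arrays, and did not pass although the arrays did not overlap (log2 difference -0.65 ± 0.17, SE, adjusted p = 0.0654). Scd1, the brightest gene of vehicle cells, had 56582 to 110578 with a median of 72622 on the treated arrays, against 99795, 136379 and 105023 on the vehicle arrays, and did not pass (log2 difference -0.62 ± 0.15, SE, adjusted p = 0.0531). The count of 251 probe sets was 122, 115 and 127 without vehicle replicate 1, 2 and 4, 163 without rosiglitazone replicate 4 and 159 without troglitazone replicate 4, and by scaling the higher share was 59.8% as deposited, 50.2% with quantile normalisation and 71.8% with median centring.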

How the data were processed

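One-colour oligonucleotide arrays with 12488 probe sets, 66 of them controls, measured the total RNA of 11 3T3-L1 samples. The deposited table gives linear signal intensity, which the authors had already scaled. The mean over all probe sets, controls included, after trimming 2% of values at each end was nearly equal on every array, between 499.863 and 499.908. The array software and its summary of probe pairs were not given in the sources used, and no detection calls were used. GEO's platform annotation names 1 gene for 10833 of the 12422 other probe sets, several for 396 and none for 1193, and 10817 of the 10833 matched the GRCm38.p6 gene table. Groups came from the labels and sets from the titles.

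Percentile ranks were computed on each array among non-control probe sets. For tests, signals were raised to a floor, the 25th percentile of the pooled values, base 2 logarithms were taken, and probe sets above the floor on at least 2 arrays were tested two-sided with limma 3.58.1 in R 4.3.3, with an intensity trend and Benjamini-Hochberg adjustment. Vehicle replicate 4 was set against replicates 1 and 2 with a mean for each group and set, and the mean of the drugs against vehicle with a term for the set. The fits were tested on simulated data. The p-values measure only the spread between these samples, which may be technical, and arrays have no read depth: the number of arrays and the signal over background limit the precision. Promoters are from RefSeq.

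The members and lists were chosen with earlier results of these data known. Genes were named by rule: the 6 markers, in each of 34 lists up to 6 members of highest and 3 of lowest mean rank, the 25 brightest genes, the 10 of widest log2 range over the vehicle arrays, and up to 8 each way for each of the 3 tests. Further list members named for their known roles were chosen after their values were seen. Of 1074 list entries 876 were measured. Alternatives to these choices are given in the closing section.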

Additional observations from a re-analysis of the deposited data

How the results depend on the processing

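The counts of bright genes depended on the rank asked for: 1580 genes were at rank 80 or more on all 3 vehicle arrays and 394 at 95 or more, with 4 and 0 preadipocyte genes, while matrix genes numbered 6 at 95. Dim genes numbered 2768 with the line at the 75th percentile of the unrelated genes, 2421 with a line at rank 50 and 2106 with the line at the brightest microbial control, an alternative chosen after seeing the data. Leaving out 1 vehicle array gave 832 to 884 bright and 4798 to 5000 dim genes, 20 to 21 bright adipocyte identity genes, 13 to 14 matrix genes and 2 preadipocyte genes. The lowest correlation of 2 vehicle arrays was 0.791 over probe sets above rank 50 on at least 1 array and 0.887 as a Pearson correlation of floored log2 signals, and 0.826 to 0.843 with an array left out. The 7 probe sets that separated vehicle replicate 4 were 0 with quantile normalisation or no intensity trend, 28 with median centring, 3 with the floor at the 50th percentile, 43 with no filter and 632 in an additive model, which shares the set difference among the groups, and 0 to 8 with an array left out. The test of a set difference particular to vehicle called 9 with no filter on dim probe sets and 0 with each of the 8 arrays that could be left out. For the drugs against vehicle, 30 probe sets were called with no intensity trend and 84 with no set term, and 115 to 236 with an array left out. With the replicate number as a block 247 were called, 237 of them among the 251, and median centring gave 183 higher and 72 lower. Arrays of one number shared deviations only in replicate 4 (correlations 0.291 to 0.364, against 0.007 to 0.095 in replicate 1 and -0.098 to 0.095 in replicate 2), so the numbers were not taken as pairs. The set contrasts of vehicle cells could not be fitted with this block or without vehicle replicate 4. The test of a set difference particular to vehicle also needed rosiglitazone replicate 4 and troglitazone replicate 4. Among 1341 alternative log2 differences of the named genes that passed, 0 turned their direction. The cause of the other changes was not tested.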

Other observations

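A few genes known from other tissues ranked high in vehicle cells. Of the 85 genes of unrelated tissues, Tnp1, a transition protein of sperm nuclei, was the bright one, with a signal of 5099, 3517 and 2682 on replicates 1, 2 and 4. Tff1, a trefoil peptide of the stomach, had 1334, 1249 and 1406, Ctrb1, a pancreatic protease precursor, had 1919, 2174 and 671, and Lor, loricrin of the epidermis, had 1638, 884 and 897. Other pancreatic, gastric and hepatic genes of the list were dim, such as Cel with 319, 152 and 459, Atp4b with 64.2, 49.5 and 21.7 and Alb with 76.7, 96.1 and 21.1. Whether these probe sets measured the transcripts they are named for was not tested.

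Among genes at rank 50 or more on at least 1 vehicle array, the 10 with the widest range of floored log2 signal over the 3 arrays were Rps27l, Igkv14-111, Flt3, Agr2, Pofut2, Cpne3, Cdh15, Ctrl, Reep1 and Sf1, and all but Cpne3 were read from probe sets whose name carries the letter r. Rps27l, a ribosomal protein paralogue, had 1335, 703 and 75.2 on replicates 1, 2 and 4, and Ctrl, a chymotrypsin-like protease, had 462, 5936 and 1820.

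Probe sets without 1 gene name also hold signal. Of 1193 with no gene in the annotation 63 were bright (5.28%), and of 396 that name several genes 78 were (19.7%), against 7.94% of all 12422.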
